A study of Gallus gallus and Columba livia with 18 samples.

Results

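Genes for collagens, laminins, nidogens and integrins, with those for fibronectin, tenascin C, perlecan and agrin, were followed through early development of the retina in 2 birds. They were chosen by name alone, as the rows whose gene name begins with the collagen, laminin, integrin or nidogen symbols or is FN1, TNC, HSPG2 or AGRN. The rule took 76 of 24708 rows in the chicken table and 43 of 16652 rows in the pigeon table, 119 of 41360 in all. The chicken rows hold 8 fibrillar collagens, 24 basement membrane genes, 9 fibril-associated collagens, 13 other collagens, 2 adhesive glycoproteins, 8 integrin alpha chains and 7 integrin beta chains. The pigeon rows hold 5, 14, 3, 4, 0, 5 and 7 in the same order. A further 5 rows in each table match by the start of their name only and belong to neither family, among them COL4A3BP, a ceramide transfer protein.

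Collagen chains join in trimers. Fibrillar collagens pack into the cables of connective tissue and are made mostly by mesenchymal cells, while collagen IV forms the net of basement membranes, the thin sheets beneath epithelia and around vessels. Laminins, each built of an alpha, a beta and a gamma chain, form the other net of that sheet, and nidogens, perlecan and agrin tie the nets together. Integrins are pairs of an alpha and a beta chain in the cell surface that bind these proteins. In the embryonic eye a basement membrane, the inner limiting membrane, covers the vitreal face of the retina, and the endfeet of its cells rest on it.

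Whole retinas were taken from chicken (Gallus gallus) and pigeon (Columba livia) embryos incubated at 37 °C. The 3 stages are here called E3 (embryonic days 3 to 3.5), E5 (days 5 to 5.5) and E8 (days 8 to 8.5). The birds were matched by day alone, so a difference between them cannot be told apart from one in developmental stage. Each of the 6 groups had 3 libraries of polyadenylated RNA, each from 1 to 6 pooled retinas, and no genotype, strain or treatment is named. The deposited tables give 1 pooled FPKM value per gene and stage (sequenced fragments divided by transcript length in kilobases and by library size), so no replicate spread, n or p-value can be given for any value, and sequencing depth is unknown. FPKM is a level per length and was compared between genes within a table, but never between the tables, which were made separately.

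A change is the difference of log2(FPKM + 1) between stages, which understates the change of low genes. It was computed for genes that reached an FPKM of 1 at some stage and were above 0 at both stages, and changes of at least 1 in size were counted, as higher or lower. Of the chicken rows, 51 reached that level, 25 did not, and 38 reached an FPKM of 5. Of the pigeon rows, 35 reached it, 8 did not, and 21 reached an FPKM of 5. The chicken row named COL2A1, the main cartilage collagen, lies on an unplaced sequence and was listed at 0 at every stage.

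Some names needed care. Of the 43 pigeon rows, 37 had neighbouring genes that surround the same name in the chicken table, though COL27A1 and LAMA2 by 1 shared neighbour only. Neighbours that match the name rule were skipped, so members side by side in chicken share their neighbours. For the pigeon rows COL4A1, COL4A4, COL4A6, LAMB1, ITGA1 and ITGA2, the neighbours therefore could not tell the listed name from the member beside it. Another 5 had neighbours found elsewhere, and 1 shared none. To place a row under another name 3 shared neighbours were needed, and COL4A5, one of the 5, had 1. Of the rows named COL5A1, one (row a, scaffold 642, 1594914 to 1732484) lay among the neighbours of chicken COL5A1. The other (row b, scaffold 7, 4870936 to 4999379) lay between DPH5, EXTL2, OLFM3, RNPC3 and SLC30A7, which surround COL11A1 in chicken. In the same way a NID1 row (row b, scaffold 218) stood where chicken has NID2, and an ITGB3 row (row b, scaffold 122) stood where chicken has ITGB1. In the chicken table the row named COL1A1 (chromosome 7, 565993 to 617207) lies beside COL5A2, where the RefSeq list of chicken genes has COL3A1 and places COL1A1 on chromosome 27. It is called by its listed name here. No source used here names the build of either table, so positions are as the tables give them.

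Other tissues were measurable in these retinas. In chicken, summed FPKM of the periocular mesenchyme list (8 of 13 markers listed) was 57.1 at E3, 68.7 at E5 and 21.7 at E8. Its highest member was FOXC2, at 25.4, 35.6 and 0.119, its lowest was TCF21, at or near 0 at every stage, and PRRX1 was at 0 at E8. EYA2, at 7.96, 8.71 and 14.1, and PDGFRA, at 10.6, 7.64 and 6.35, gave most of its sum at E8. In pigeon it was 57.0, 37.4 and 30.4 (5 of 13 listed once), with ALX4 at 18.4, 11.2 and 0 and PDGFRA the highest at 25.2 at E8. The lens list summed to 685, 746 and 62.1 in chicken (11 of 15 listed once), where the delta-crystallin gene ASL1 alone gave 582, 625 and 2.33. In pigeon it summed to 11.2, 8.48 and 15.0 (6 of 15 listed once), and no row was found there for ASL1 or ASL2. At E8 most of either sum was CRYAB, at 52.1 in chicken and 12.5 in pigeon, and pigeon CRYAA was at 0. The erythroid list summed to 678, 1584 and 98.4 in chicken (6 of 13 listed once) and to 2530, 853 and 18.6 in pigeon (3 of 13). The pigment epithelium list summed to 128, 326 and 60.9 in chicken (12 of 12) and to 483, 461 and 297 in pigeon (8 of 12). At E8 its highest member was TRPM1, at 38.1 in chicken and 189 in pigeon, where SLC24A5 was at 103 and MLANA at 0. From E3 to E8, 0 of 6 compared genes of this list were higher in pigeon and 4 lower, against 9.39% and 8.58% of all genes. From E3 to E5, 4 of 5 erythroid and 6 of 10 pigment epithelium genes were higher in chicken, against 1.97% of all genes. The ciliary margin and optic stalk list summed to 493, 458 and 239 in chicken (7 of 10). In pigeon it summed to 523, 431 and 244 (6 of 10), of which VAX2 gave 320, 246 and 146. The neuron list, which marks the retina itself, went from 107 to 671 and from 58.9 to 522 between E3 and E8. It had 10 and 4 of 14 markers listed once. Of its compared genes 9 of 9 and 4 of 4 were higher, against 6.65% and 9.39% of all genes. In bulk tissue, fewer cells of a type and less RNA per cell cannot be told apart, and the part of these tissues in the results below was not tested.

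From E3 to E8, more of these genes were counted in either species than of all genes, and lower levels prevailed. In chicken 6 of 51 compared members were higher (11.8%) and 15 lower (29.4%), against 6.65% and 5.29% of all compared genes. Together that was 41.2% against 11.9%. In pigeon 6 of 35 were higher (17.1%) and 12 lower (34.3%), against 9.39% and 8.58% of all, together 51.4% against 18%. The excess over all genes was larger for lower than for higher levels in both birds. The median change over members was -0.52 in chicken and -0.38 in pigeon, while the medians over all genes lay at -0.01 and 0.00. Without the rows that belong to neither family, left out after the data were seen, the medians over members were -0.59 and -0.82. The order of the birds in these medians thus depends on those rows.

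The counts were larger from E5 to E8 than from E3 to E5. From E3 to E5, 4 chicken members were higher (COL5A1, COL1A1, COL9A1 and COL9A3) and 2 lower (COL14A1 and NID2), 11.8% against 2.97% of all genes (1.97% higher and 1% lower). In pigeon 0 were higher and 2 lower (COL14A1 and NID1 row b), 5.71% against 2.88% (1.51% higher and 1.36% lower). From E5 to E8, 2 were higher (COL23A1 and COL6A2) and 17 lower in chicken, 37.3% against 8.98% of all genes (4.53% higher and 4.46% lower). In pigeon 5 were higher (both COL5A1 rows, ITGA6, ITGB8 and a row named ITGB1BP3) and 11 lower, 45.7% against 15.3% (8.04% higher and 7.25% lower). Both steps share the E5 values.

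**Figure D1:**
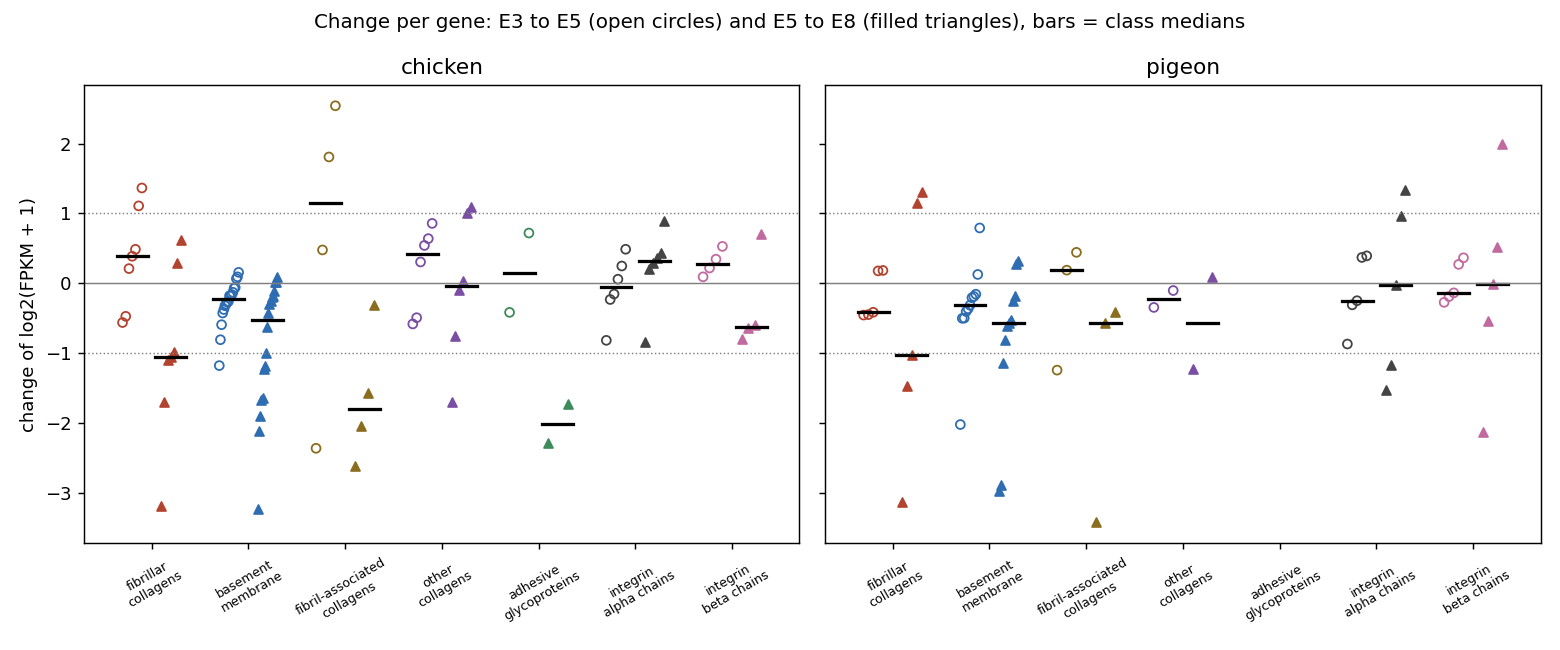
Change of log2(FPKM + 1) of each compared gene, by class, with open circles for E3 to E5, filled triangles for E5 to E8, black bars for class medians and dotted lines at a change of 1 in size. Between E5 and E8 the basement membrane genes ranged from -3.24 to 0.09 in chicken and from -2.97 to 0.32 in pigeon. The fibrillar collagens ranged from -3.19 to 0.61 in chicken and from -3.14 to 1.30 in pigeon.

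The fibrillar collagens went separate ways. COL5A1, a chain of collagen V that starts and thins fibrils, was 14.1 FPKM at E3, 37.8 at E5 and 58.5 at E8 in chicken, a rise of 1.98 over the period. In pigeon, row a was 25.8, 29.4 and 73.9 FPKM, a rise of 1.48. Chicken reached most of its rise by E5 (a change of 1.36, then 0.61), and pigeon made most of it after E5 (0.18, then 1.30). The pigeon row b was 39.4, 44.7 and 99.9 FPKM, a rise of 1.32. At its place in chicken, COL11A1, a chain of the related collagen XI, was 24.5, 28.5 and 35.2 FPKM, a change of 0.51 that was not counted.

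COL1A2, a chain of collagen I, the main collagen of skin, bone and sclera, did the opposite. In chicken it was 19.9, 26.3 and 1.99 FPKM, and in pigeon 65.8, 47.7 and 4.54. From E5 to E8 it fell by 3.19 and by 3.14, almost equal amounts. At E5 the chicken level of COL1A2 stood at 26.3 FPKM, below the 37.8 of COL5A1, and at E8 it stood at 1.99 against 58.5. In pigeon COL1A2 was above COL5A1 row a at E3 and E5 and below it at E8.

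The chicken row named COL1A1 was 9.22, 21.0 and 5.75 FPKM, a rise of 1.11 followed by a fall by 1.71. Its neighbour on chromosome 7, COL5A2, the second chain of collagen V, was 10.7, 15.3 and 7.28 FPKM, with changes of 0.49 and -0.98, neither counted. Both were highest at E5, as were the sums of the chicken mesenchyme, endothelium, pigment epithelium, lens, erythroid and leukocyte lists, whose part in this was not tested. COL5A2 did not follow COL5A1. COL24A1, a minor fibrillar collagen, fell in both birds, from 6.24 to 3.90 and 1.28 FPKM in chicken and from 5.06 to 3.44 and 0.595 in pigeon. COL27A1, at under 5 FPKM throughout and named here after its values were seen, fell by 1.52 in chicken and by 1.45 in pigeon.

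Over the class, 1 of 7 compared fibrillar rows was higher at E8 than at E3 in chicken and 3 were lower. Of all chicken genes 6.65% were higher and 5.29% lower. In pigeon 2 of 5 were higher and 3 lower, beside 9.39% and 8.58% of all genes. Both of the higher pigeon rows carry the name COL5A1. The summed FPKM of the class hides this turnover, at 88.4, 135 and 111 in chicken and 140.0, 128 and 179.7 in pigeon.

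**Figure D2:**
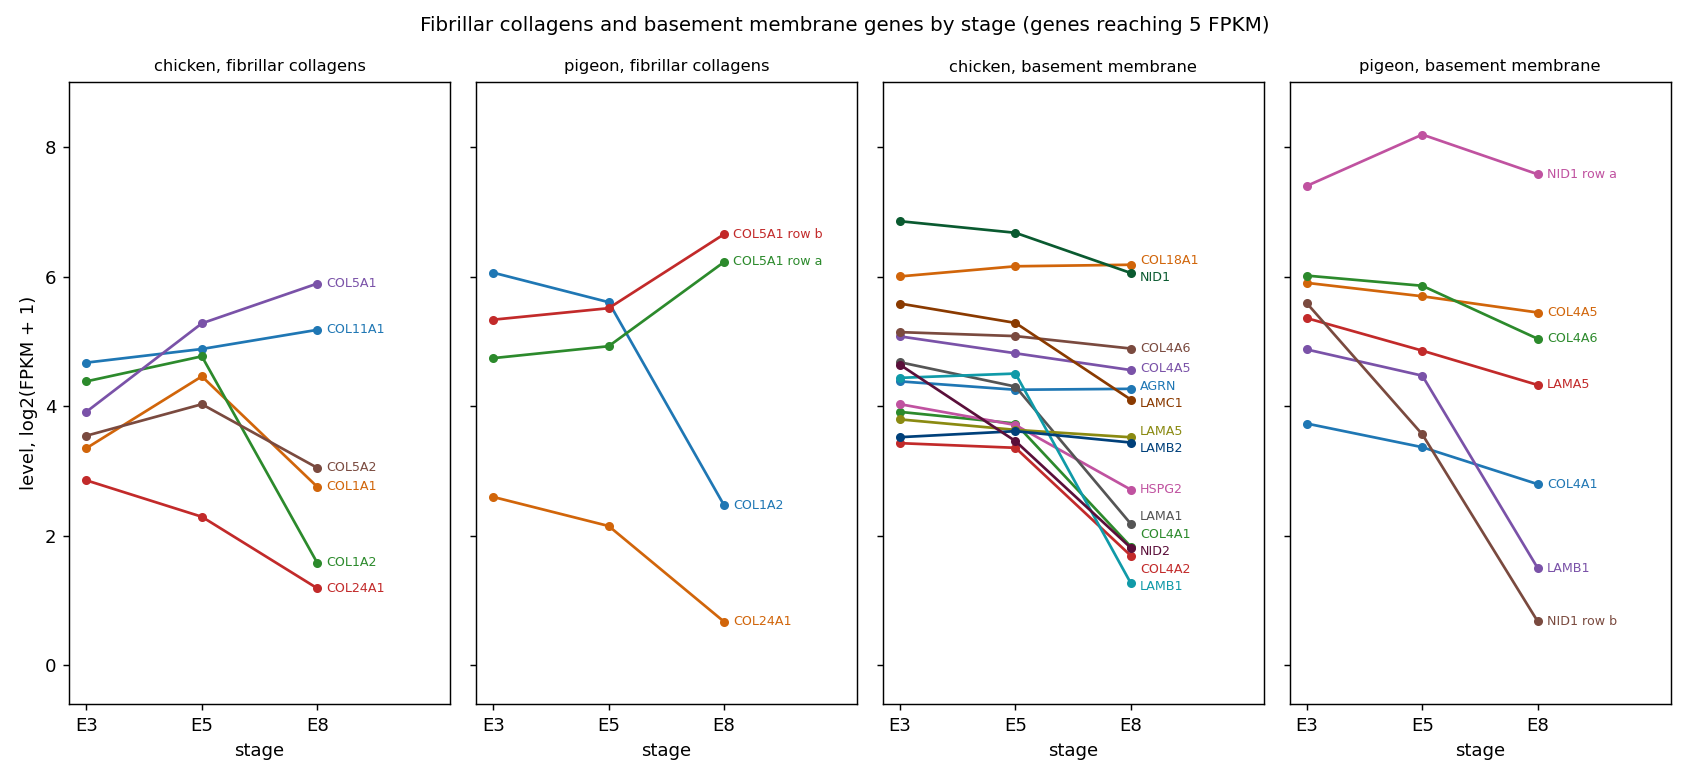
Level of each fibrillar collagen and basement membrane gene that reached 5 FPKM, as log2(FPKM + 1) at E3, E5 and E8, 1 line per table row and 1 panel per species and class; "row a" and "row b" mark names listed in 2 pigeon rows. COL5A1 climbs while COL1A2 drops in both birds, and the chicken basement membrane genes split after E5 into a group near its earlier level and one that drops to 5.55 FPKM or lower, with LAMC1 between.

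The basement membrane genes divided by chain. In chicken 0 of 18 compared rows were higher at E8 than at E3 and 8 were lower, beside 6.65% and 5.29% of all genes. In pigeon 0 of 11 were higher and 4 lower, beside 9.39% and 8.58%. The 8 chicken rows were COL4A1, COL4A2, HSPG2, LAMA1, LAMB1, LAMC1, NID2 and LAMB4, the last at under 5 FPKM. Class medians were -0.87 and -0.94. Summed levels were 453, 401 and 265 FPKM in chicken and 431, 479.7 and 301 in pigeon.

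Of the collagen IV chains, COL4A1 and COL4A2, which make the common form of the net, lost most of their level in chicken. COL4A1 was 14.1, 12.3 and 2.56 FPKM and fell by 1.90 from E5 to E8. COL4A2 was 9.78, 9.26 and 2.23 FPKM and fell by 1.67. The other abundant pair was nearly level, since COL4A5 was 32.8, 27.2 and 22.6 FPKM and COL4A6 was 34.4, 32.9 and 28.7, with changes over the period of -0.52 and -0.25. COL4A1 and COL4A2 together made up 26.2%, 26.4% and 8.55% of the summed FPKM of the 4 chains.

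These chains also pair in the genome. COL4A1 (chicken chromosome 1, 143053222 to 143165252) and COL4A2 (143257003 to 143308098) are neighbours, and so are COL4A5 (chromosome 4, 14005550 to 14063764) and COL4A6 (14161689 to 14224020), an arrangement known from mammals, where each pair is read outward from a shared promoter region. In the chicken table COL4A1 and COL4A2 both fell and neither COL4A5 nor COL4A6 was counted. The third pair, COL4A3 and COL4A4 on chromosome 9, stayed below 1 FPKM. LAMB1 and LAMB4, neighbours on chromosome 1, both fell, by 3.17 and 2.04.

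In pigeon COL4A1 was 12.3, 9.32 and 5.95 FPKM, a change over the period of -0.94 that missed the count. COL4A5 was 58.9, 50.9 and 42.6 and COL4A6 63.7, 57.1 and 31.9 FPKM, with changes of -0.46 and -0.98. COL4A1 made up 9.11%, 7.95% and 7.39% of these 3 chains, and the same share in chicken was 17.3%, 17.0% and 4.76%. The share at E8 was lower than at E5 by more in chicken than in pigeon, a comparison of pooled values with no test, and COL4A2 of pigeon was not analysed here.

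Some chicken laminin chains fell while others stayed near level. LAMA1, the alpha chain of the first laminin of the embryo, was 24.6, 18.7 and 3.54 FPKM and fell by 2.50 over the period. LAMB1, its beta chain, was 20.7, 21.7 and 1.40 FPKM, and its fall by 3.24 from E5 to E8 was the largest of any chicken member between those stages. LAMC1, the gamma chain shared by most laminins, was 47.0, 38.0 and 16.2 FPKM and fell by 1.48. LAMA5 and LAMB2, chains of the laminins of mature basement membranes, were near level, at 12.9, 11.4 and 10.5 FPKM and at 10.5, 11.3 and 9.85 FPKM. LAMA1 therefore went from 61.2% to 23.0% of the summed alpha chains and LAMA5 from 32.1% to 68.0%. LAMB1 went from 58.2% to 12.1% of the beta chains and LAMB2 from 29.5% to 85.2%. Between E3 and E8 the summed alpha chains went from 40.2 to 15.4 FPKM and the summed beta chains from 35.6 to 11.6. The shares of LAMA5 and LAMB2 thus grew without a rise in their levels.

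**Figure D3:**
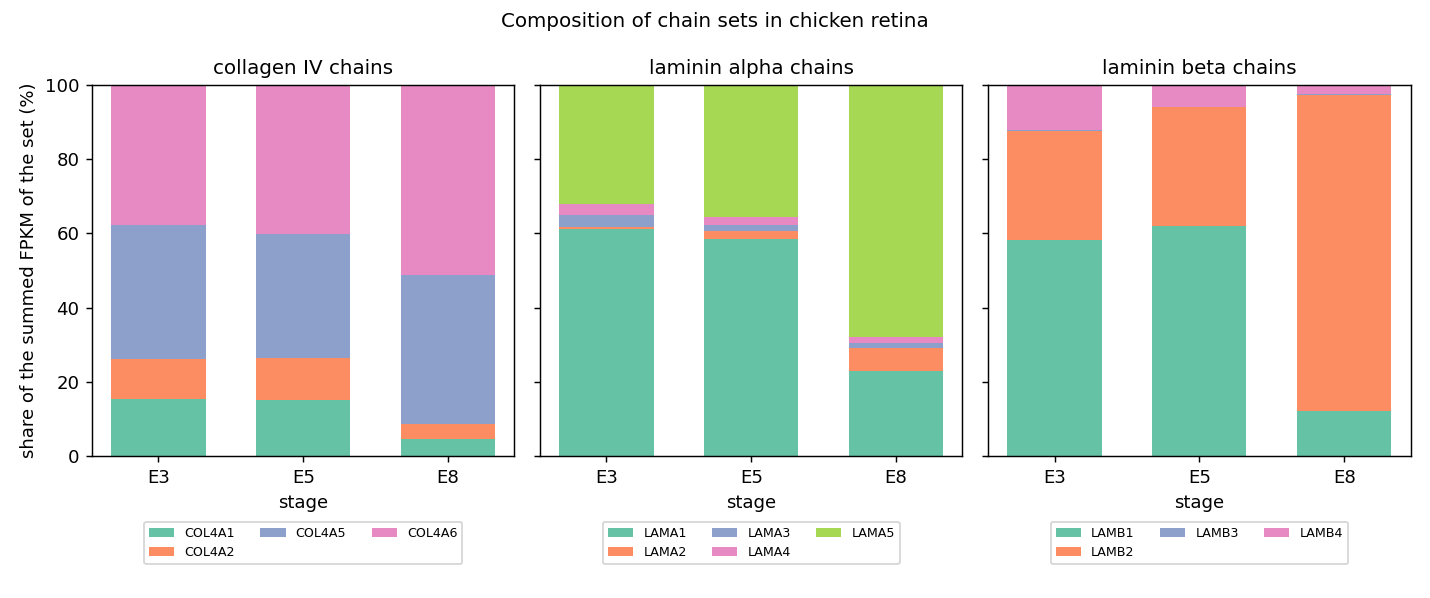
Share of the summed FPKM that each chain gave among 4 collagen IV chains, all laminin alpha chains and all laminin beta chains in chicken at E3, E5 and E8; each bar totals 100%. The composition at E3 and E5 is alike. COL4A5 with COL4A6 take most of their set at every stage and more at E8, while LAMA5 and LAMB2 take most of theirs at E8 only.

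In pigeon LAMB1 was 28.4, 21.2 and 1.83 FPKM and fell by 2.97 from E5 to E8, close to chicken. LAMA5 was 40.1, 28.0 and 19.1 FPKM and fell by 1.03 over the period, where chicken gave -0.28. LAMA2, the alpha chain of muscle laminin, was 3.65, 4.07 and 1.29 FPKM and is named after its values were seen, as the fourth pigeon row counted lower. LAMA1, LAMB2 and LAMC1 of pigeon were not analysed here, so the change in shares of the chains was seen in chicken alone.

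Nidogens link laminin to collagen IV, and they parted as well. NID1 was the highest basement membrane gene in chicken at E3, at 115 FPKM, then 101 and 65.5, a change of -0.80. NID2 was 23.9, 10.0 and 2.51 FPKM and fell already from E3 to E5, by 1.18, and fell by 2.83 over the period. The pigeon rows named NID1 also parted. Row a was 168, 292 and 190.4 FPKM, and row b, at the place of chicken NID2, was 47.2, 10.9 and 0.600 FPKM. Row b fell by 4.91, the largest fall of any pigeon member, and went from 21.9% to 0.314% of both rows, while chicken NID2 went from 17.2% to 3.70% of both nidogens.

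The heparan sulfate proteoglycans did not move together. HSPG2, perlecan, was 15.4, 12.1 and 5.55 FPKM in chicken and fell by 1.32. AGRN, agrin, which organises the synapse between nerve and muscle and is abundant in the inner limiting membrane, was 19.9, 18.1 and 18.3 FPKM, a change of -0.12. The pigeon row under agrin's protein entry name, outside the name rule, was 50.5, 42.2 and 35.5 FPKM. COL18A1, the collagen that carries endostatin, was 63.2, 70.5 and 71.7 FPKM in chicken, but its row is joined with PCBP3 and the genes cannot be told apart in it.

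The median change of basement membrane genes minus that of fibrillar collagens described the contrast poorly. From E3 to E5 it was -0.61 in chicken and 0.10 in pigeon, from E5 to E8 0.53 and 0.46, and over the period -0.27 and 0.51. Its sign turned in all 3 pigeon comparisons when only genes of at least 5 FPKM were used, to -0.23, -0.45 and -0.67. Over the period in chicken it turned to 0.20 with no filter on low values. The span within each class was wider: from -2.80 to 1.98 among chicken fibrillar collagens and from -3.17 to 0.18 among chicken basement membrane genes. From E3 to E8, the only fibrillar rises counted were COL5A1 in chicken and the 2 pigeon rows of that name. Among basement membrane genes 0 of 18 were higher in chicken and 0 of 11 in pigeon. Over all genes 6.65% and 9.39% were higher, so these counts are near those shares. No difference between the classes is drawn from them. In chicken the endothelium list, a source of basement membrane, summed to 197, 218 and 191 FPKM (10 of 12 listed, from 0.037 for ERG to 152 for TIE1 at E8), and without TIE1 its levels were each 18.3 FPKM or lower at E8. In pigeon it summed to 49.4, 32.7 and 6.33 FPKM (5 of 12 listed once), with ESAM at 0 at E8, and its part in these results was not tested.

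The fibril-associated collagens, which sit on the surface of fibrils, held the strongest rises by E5. COL9A1, a chain of collagen IX of cartilage and vitreous, was 43.0, 153 and 24.1 FPKM in chicken, a rise of 1.81, and then fell by 2.62. COL9A3, another chain of the same trimer, was 20.6, 125 and 100.5 FPKM, a rise of 2.54, with a change of -0.31 after it. These chains of the same trimer stood at similar levels at E5 and apart at E8. The COL9A3 values are those of its row on chromosome 20, where the RefSeq list places the gene. A second chicken row of that name, on chromosome 6, went from 0.499 to 0.188 and 0.051 FPKM. The COL9A1 row shares its coordinates with a separate COL19A1 row of at most 0.202 FPKM, and how reads were assigned between them is not known. In pigeon, the row under the protein entry name of COL9A1 was 42.7, 112 and 13.9 FPKM, a rise of 1.37, and then fell by 2.92.

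COL14A1, of dense connective tissue, fell at both steps and was 19.1, 2.91 and 0.316 FPKM in chicken and 28.4, 11.4 and 0.158 in pigeon. It fell over the period by 3.93, the steepest fall of any chicken member, and fell by 4.67 in pigeon. COL12A1, at 2.80, 4.29 and 0.285 FPKM in chicken and named after its values were seen, fell by 1.56. Among the other collagens, 2 membrane-spanning ones stood above 5 FPKM in chicken. COL23A1 was 8.22, 10.4 and 23.2 FPKM, a rise of 1.39, and COL25A1, a collagen of neurons, was 20.7, 14.4 and 13.5 FPKM, a change of -0.59. The remaining members of that class in pigeon stayed at 3.06 FPKM or lower.

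Of the adhesive glycoproteins, FN1, fibronectin, was 14.4, 10.5 and 2.48 FPKM in chicken and fell by 2.15. The pigeon row under fibronectin's protein entry name was 25.0, 8.33 and 0.413 FPKM and fell by 4.20. TNC, tenascin C, a matrix protein of growing tissue and glia, was 8.93, 15.4 and 2.34 FPKM in chicken, with a change of 0.72, and then fell by 2.29.

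Of the integrins, 2 of 10 compared chains were higher at E8 than at E3 and 0 lower in chicken, beside 6.65% and 5.29% of all genes. In pigeon 3 of 10 were higher and 3 lower, beside 9.39% and 8.58%. With 10 chains in each bird these counts are small, and no test stands beside them. ITGA6, which with ITGB1 forms a laminin receptor, was 20.2, 24.1 and 45.8 FPKM in chicken, a rise of 1.14. In pigeon it was 31.4, 40.9 and 105 FPKM, a rise of 1.71. ITGB8, which pairs with the alpha V chain and frees transforming growth factor beta from its latent complex, was 5.51, 7.28 and 12.5 FPKM in chicken, a rise of 1.05. In pigeon it was 8.54, 11.3 and 47.8 FPKM, a rise of 2.35. Both genes were higher at each stage than at the one before, in both birds.

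The most abundant chains were not counted. ITGB1, the partner of most collagen and laminin receptors, was 128, 136 and 78.1 FPKM in chicken, a change of -0.71, and the pigeon row at its place, named ITGB3, was 155, 141 and 140.5 FPKM. ITGB5, a partner of alpha V, was 80.8, 94.2 and 62.2 FPKM in chicken and 165, 137 and 93.4 in pigeon. ITGAV itself was 22.4, 20.0 and 23.3 FPKM in chicken, and the pigeon row under its protein entry name was 47.6, 50.7 and 39.2. ITGB1 and ITGB5 made up 59.1% and 37.3% of the summed beta chains of chicken at E3 and 50.3% and 40.0% at E8, with ITGB8 going from 2.55% to 8.02%.

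ITGA2, a collagen receptor chain, was 12.4, 10.4 and 13.6 FPKM in chicken, a change of 0.13, but 11.8, 15.8 and 31.8 in pigeon, a rise of 1.36. ITGA4, which binds fibronectin, was 5.93, 2.93 and 4.31 FPKM in chicken. The 3 pigeon chains counted lower were ITGA8, ITGA11 and ITGB3 row a, each at 3.93 FPKM or lower and named after their values were seen. ITGB1BP3, whose name only begins like an integrin's, had the highest level of the matched rows in both tables, with 1140, 1267 and 1034 FPKM in chicken.

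**Figure D4:**
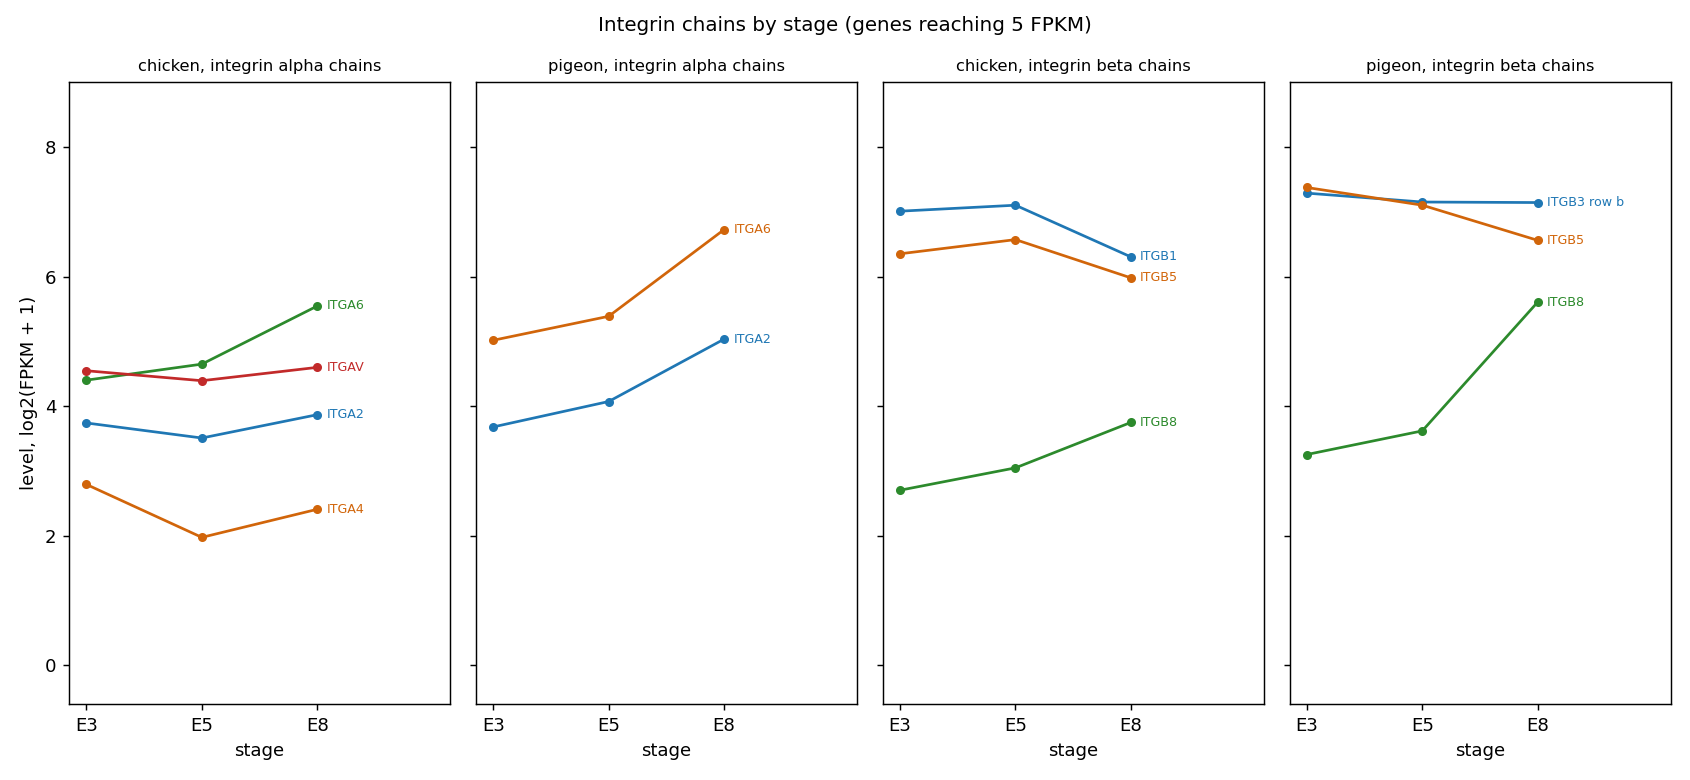
Level of each integrin alpha and beta chain that reached 5 FPKM, as log2(FPKM + 1) at E3, E5 and E8, 1 line per table row and 1 panel per species and class. ITGA6 and ITGB8 climb in both birds, ITGA2 climbs in pigeon, and the abundant beta chains stay at 62.2 FPKM or more.

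The birds were set side by side for names listed once in each table. There were 32 such names, of which 20 were compared, and 18 of the 20 had the same sign of change from E3 to E8, against 67% of all shared names. The 20 include COL4A3BP and ITGB1BP1, which belong to neither family. COL1A2, COL14A1, COL24A1, COL27A1 and LAMB1 were lower in both, and ITGA6 and ITGB8 were higher in both. The changes differed by at least 1 for 1 name from E3 to E5 (2.66% of all shared names did), for 5 from E5 to E8 (8.27% of all) and for 4 over the period (10.3% of all). Signs were thus shared more often than over all names, with no test. Sizes differed by at least 1 more often too, though from E3 to E5 this rests on 1 name. The name from E3 to E5 was COL14A1, and the 5 were COL14A1, COL6A3, COL4A1, ITGA8 and ITGB8. The 4 were COL4A1, at -2.08 in chicken and -0.94 in pigeon, ITGA2, at 0.13 and 1.36, ITGB8, at 1.05 and 2.35, and ITGA8, at 0.77 and -1.78. With rows also matched by their neighbours or protein entry names, an alternative chosen after the data were seen, 26 of 32 had the same sign and 8 differed by at least 1. Those it added include FN1, with a difference of -2.05, and NID2, with -2.09.

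**Figure D5:**
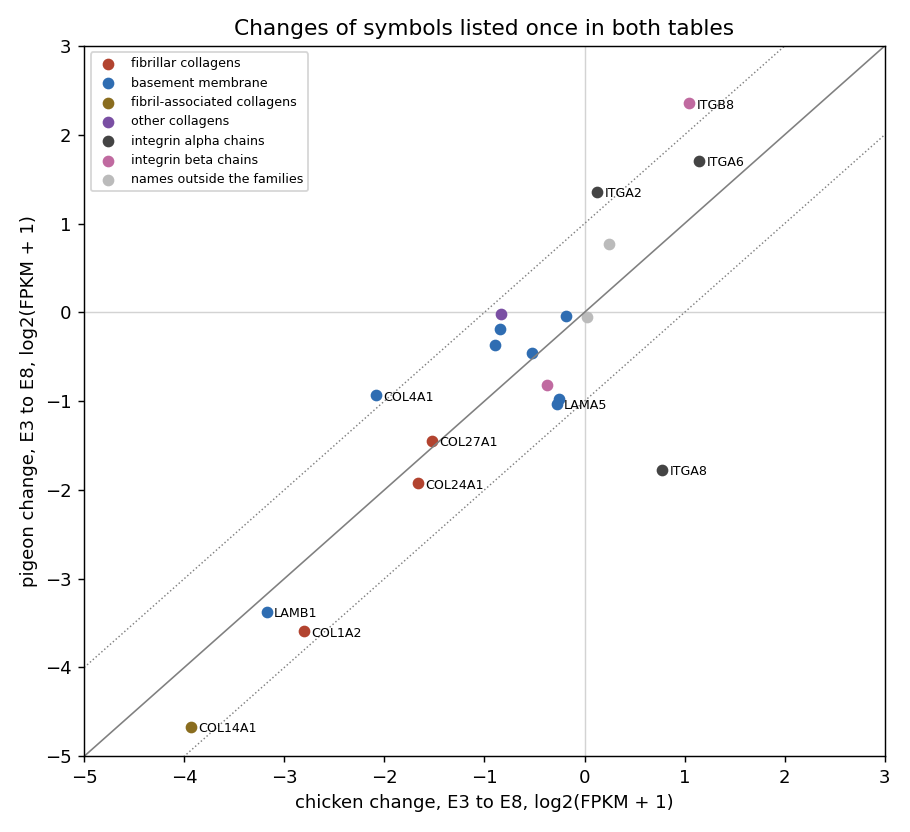
Change of log2(FPKM + 1) from E3 to E8 in pigeon (vertical) against chicken (horizontal) for the 20 compared names listed once in both tables, 1 point per name coloured by class; the solid line marks equal changes and the dotted lines a difference of 1. Most points lie between the dotted lines, and ITGA8 lies far below them.

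Genes that make, cut or bind this matrix were read from 6 further lists, to be set beside the 6.65% higher and 5.29% lower of all chicken genes and the 9.39% and 8.58% of all pigeon genes from E3 to E8. Of the collagen processing genes, 0 of 17 compared were higher and 6 lower in chicken from E3 to E8, and 1 of 8 was higher and 3 lower in pigeon. SERPINH1, the chaperone of procollagen, was 108, 91.6 and 30.2 FPKM in chicken and fell by 1.81, and SPARC, a collagen-binding protein, was 108, 94.7 and 40.8. FKBP10, a prolyl isomerase for collagen, fell by 1.40 in chicken and by 2.14 in pigeon. Of small leucine-rich proteoglycans, which bind collagen fibrils, 3 of 7 were lower in chicken, and 1 of 5 was higher and 2 lower in pigeon. LUM, lumican, was 37.8, 44.3 and 0.106 FPKM in chicken and 67.9, 79.7 and 1.18 in pigeon. DCN, decorin, was 25.0, 6.91 and 0.284 in chicken and 43.2, 19.2 and 2.26 in pigeon.

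Of the proteases and their inhibitors, 0 of 11 were higher and 4 lower in chicken, with MMP2, a gelatinase, at 13.5, 11.9 and 1.69 FPKM, and in pigeon 1 of 6 was higher, MMP16, at 4.72, 5.08 and 10.6. Of other matrix receptors, 4 of 11 were lower in chicken and 1 of 8 in pigeon. The latter was the syndecan SDC1, which fell by 1.34 in chicken and fell by 3.36 in pigeon. Of the proteins of the integrin adhesion complex inside the cell, 1 of 17 was lower in chicken, ACTN1, at 45.8, 46.1 and 18.02 FPKM, and 3 of 10 in pigeon, led by FERMT1 at 14.7, 11.1 and 2.89. The chicken count is near the share over all genes.

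The other matrix glycoproteins moved both ways. In chicken 5 of 26 were higher and 8 lower, and in pigeon 3 of 16 were higher and 5 lower. FBN1, fibrillin 1 of microfibrils, was 81.3, 153 and 276 FPKM in chicken, a rise of 1.75. EGFLAM, pikachurin of the photoreceptor synapse, was 0.700, 1.43 and 11.5 FPKM in chicken. RELN, reelin, a matrix signal of neurons, was 2.88, 10.3 and 39.4 FPKM in pigeon. FBLN2, fibulin 2 of basement membranes and vessels, was 8.97, 8.11 and 0.210 FPKM in chicken and 18.4, 9.53 and 0.125 in pigeon. Other large falls were those of VCAN in chicken, at 48.3, 31.0 and 9.23 FPKM, and of FBLN1 and HAPLN3 in pigeon. FBLN1 was 50.8, 40.7 and 1.66 FPKM there, and HAPLN3 was 10.7, 3.42 and 0.162.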

How the data were processed

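Messenger RNA of chicken and pigeon retina was sequenced in 18 libraries, from 1 µg of total RNA each with a TruSeq stranded mRNA kit, per the labels' protocols. TopHat2, Bowtie2, Cufflinks and Cuffdiff were used, per the submitters' processing notes. No source used here gives versions, builds or annotations. Per the file headers, the authors deposited FPKM in 2 tables, as 1 pooled column for each stage. Without values per library the planned limma test could not be run, so changes of log2(FPKM + 1) were described (pandas 2.3.3, numpy 2.4.6, Python 3.11.15), and the calculation was tested on simulated data. Groups came from the labels. Pigeon starts counted from 0 and were converted to 1-based. Whole reads could not be recovered. The reference table of chicken gene names (GRCg7b) gave names and chromosomes only, 4 named neighbours on each side placed pigeon rows, and no sequence was used.

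Members and lists were chosen with earlier results of these data known. Members that reached 5 FPKM in either table may be named, with exceptions stated beside their values, and of the other lists the 4 largest changes from E3 to E8 with an FPKM of at least 5. Alternatives were other pseudocounts, filters, scalings, thresholds and row choices. One marker of the periocular mesenchyme list is not reported here and was left out of its sum.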

Additional observations from a re-analysis of the deposited data

Results flagged for a closer look

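In 2 genes the birds went opposite ways from E3 to E8, each by at least 0.5 on log2(FPKM + 1), and the difference was not tested, since each stage has 1 pooled value. ITGA8, an integrin alpha chain that binds nephronectin and is known from kidney development, was 1.63, 2.68 and 3.49 FPKM in chicken and 3.74, 2.99 and 0.384 in pigeon, a pigeon minus chicken difference of -2.55. COL6A2, a chain of the microfibrillar collagen VI, was 0.341, 0.952 and 2.93 FPKM in chicken, and the pigeon row under its protein entry name was 8.83, 7.35 and 5.51, a difference of -2.15. Both genes were named after their values were seen, and both were low in at least 1 bird.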

How the results depend on the processing

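Each stage has 1 pooled value, so no difference has a replicate check, and leaving out replicates was not run. No paired analysis was possible because the tables hold no column per library. Pseudocounts, filters and row choices cannot turn the sign of a member's change, so only median-ratio scaling and quantile normalisation could do so. Of 1407 values for members that reached 5 FPKM under 8 alternatives, 0 turned the sign of a counted change. Another 3, of changes of at most 0.015 in size, turned sign or reached 0 under quantile normalisation. There were 14 that dropped below a change of 1 with a pseudocount of 5, and 5 passed it under 2 alternatives. Counts of members, as chicken E3 to E5, E5 to E8 and E3 to E8 and then pigeon, were 6, 19, 21, 2, 16 and 18. A change of at least 2 left 2, 6, 9, 1, 5 and 5. A pseudocount of 5 left 9 and 13 in chicken from E5 to E8 and E3 to E8, and 9 and 10 in pigeon. A pseudocount of 0.1 gave 11 in chicken from E3 to E5. An FPKM of at least 5 left 10 in pigeon from E5 to E8, and 1 row per symbol left 1 from E3 to E5.

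The difference of class medians was unstable, and the cause was not tested. For chicken from E5 to E8 it was 0.53, and 0.18 with a pseudocount of 5 and 0.23 at an FPKM of at least 5. For chicken from E3 to E8 it was -0.27, and -0.82 with a pseudocount of 0.1, 0.20 with no filter, -0.51 at an FPKM of at least 5, and 0.14 without the 3 rows on another chromosome than their reference symbol. For pigeon from E3 to E5 it was 0.10, and 0.022 with a pseudocount of 5, 0.15 with no filter, -0.23 at an FPKM of at least 5 and 0.17 with 1 row per symbol. From E5 to E8 it was 0.46, and 1.00 with a pseudocount of 0.1, -0.047 with one of 5, -0.45 at an FPKM of at least 5 and 0.70 with 1 row per symbol. From E3 to E8 it was 0.51, and 1.15, 0.16, 0.83, -0.67 and 0.99 with pseudocounts of 0.1 and 5, no filter, an FPKM of at least 5 and 1 row per symbol.

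Shared names differing by at least 1 numbered 1, 5 and 4. From E3 to E5 there were 3 with a pseudocount of 0.1, 0 with one of 5, 2 with no filter, 2 with 1 row per symbol and 3 with rows matched by neighbours. From E5 to E8 there were 2 with a pseudocount of 5, 3 at an FPKM of at least 5 and 8 with rows matched by neighbours. From E3 to E8 there were 8 with a pseudocount of 0.1 and 8 with rows matched by neighbours. Median-ratio scaling, quantile normalisation and keeping genes at 0 moved none of these counts or medians by over 1.5 times. Leaving out the names outside the families, the joined COL18A1 row or the misplaced rows was chosen after the data were seen.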
